A study of Sus scrofa with 15 samples.

Results

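DMXL1 (ENSSSCG00000027857) is 1 of 16660 genes counted in LLC-PK1 cells, a pig line from the renal proximal tubule epithelium, after transfection with plasmids for human PKD2. It was chosen from its measured values in these same libraries, as a gene that was lower with the Tg1 plasmid than with the empty plasmid. That difference, and every other comparison that uses Tg1 or empty-plasmid libraries, is therefore given below as a description with no test of DMXL1. Only the 9 libraries of the other plasmids were not used in the choice.

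The series has 5 plasmids with 3 libraries each, 15 in all, from wells of the same cell line. NC was the empty plasmid, pCAG-floxP-neo-pH11. WT carried wild-type human PKD2 behind the CAG promoter with a FLAG tag, in the floxP-neo-pH11 backbone that all 5 plasmids share. Tg1, Tg2 and Tg3 carried PKD2 with the changes D511V, L656W and R742X, of which the last is a stop codon that removes the C-terminal region and the tag. Each well received 3 µg of plasmid in transient transfection, so the cells also kept their own pig PKD2, and RNA was isolated 48 h later. The p-values below measure the spread between such wells and not between animals or cell lines. Of the proximal tubule markers, FBP1 had at most 0.543 CPM (counts scaled to library size). LRP2, CUBN, SLC5A1, SLC5A2, SLC9A3, SLC34A1, ANPEP, AQP1 and ALPL had at least 18.18 CPM in every library. SLC22A6 and GGT1 were not matched by name among the genes counted. Of the markers of intercalated cells, which are acid-secreting cells of the collecting duct, FOXI1 and ATP6V0A4 had at most 0.15 and 0.64 CPM, although ATP6V1B1 was between 198 and 257 CPM. SLC26A4, another marker of these cells, was between 2.16 and 4.71 CPM, and SLC4A1 had at most 1.75 CPM. SCNN1G of principal cells was between 3.47 and 18.6 CPM, and AQP2 was not matched by name among the genes counted. SLC12A1 of the thick limb was between 8.94 and 16.8 CPM, while UMOD had at most 0.311 CPM. Podocyte, endothelial, leukocyte and fibroblast markers all had a mean under 2 CPM. These are bulk samples, in which fewer cells with a transcript and less of it per cell cannot be told apart.

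The vacuolar H+-ATPase (V-ATPase) pumps protons into endosomes and lysosomes and, in some kidney cells, across the plasma membrane. Its cytosolic V1 part hydrolyses ATP and its membrane V0 part carries the protons, and the pump is switched on and off by joining and separating these parts. DMXL1 and its paralog DMXL2 are large WD-repeat proteins, relatives of the yeast Rav1 subunit of the RAVE complex, which helps V1 to rejoin V0. They form the rabconnectin-3 complex with WDR7, and ROGDI is the relative of the smaller yeast subunit Rav2. In the proximal tubule, acid endosomes are needed for the uptake and breakdown of filtered proteins.

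DMXL1 was well counted in all 15 libraries, with 1966 to 3052 counts in totals of 20216200 to 26132196, so counting error alone gives a coefficient of variation near 2%. Levels are given as CPM after TMM normalization, a scaling that sets the bulk of genes equal between libraries. NC replicates 1, 2 and 3 had 122.0, 114.5 and 117.7 CPM. WT replicates 1, 2 and 3 had 115.7, 107.8 and 110.9 CPM. The NC and WT ranges overlapped, with WT replicate 1 above NC replicate 2.

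Tg1 replicates 1, 2 and 3 had 85.5, 92.1 and 95.3 CPM of DMXL1. Tg2 replicates 1, 2 and 3 had 113.7, 115.5 and 117.3 CPM. Tg3 replicates 1, 2 and 3 had 118.7, 120.3 and 121.8 CPM. The 3 Tg1 libraries were thus the lowest of the 15, and the highest of them lay below the lowest other library, WT replicate 2. All 3 Tg1 libraries were also the lowest for 243 of the 11553 genes tested (2.10%), and the corresponding share was 0.675% for NC and 1.13% for Tg2.

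The group mean of DMXL1, each with the SD over n = 3 libraries, was highest in Tg3, at 120.3 ± 1.58 CPM. NC followed at 118.0 ± 3.75 CPM, then Tg2 at 115.5 ± 1.81 CPM and WT at 111.5 ± 3.998 CPM. Tg1 was last, at 91.0 ± 4.96 CPM. Neighbours in this order overlapped between Tg3 and NC, between NC and Tg2 and between Tg2 and WT. Only the step from WT to Tg1 was free of overlap. The coefficient of variation between replicates was 1.31% in Tg3 and 1.56% in Tg2, which is below the counting error, and 3.18% in NC, 3.59% in WT and 5.45% in Tg1.

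**Figure D1:**
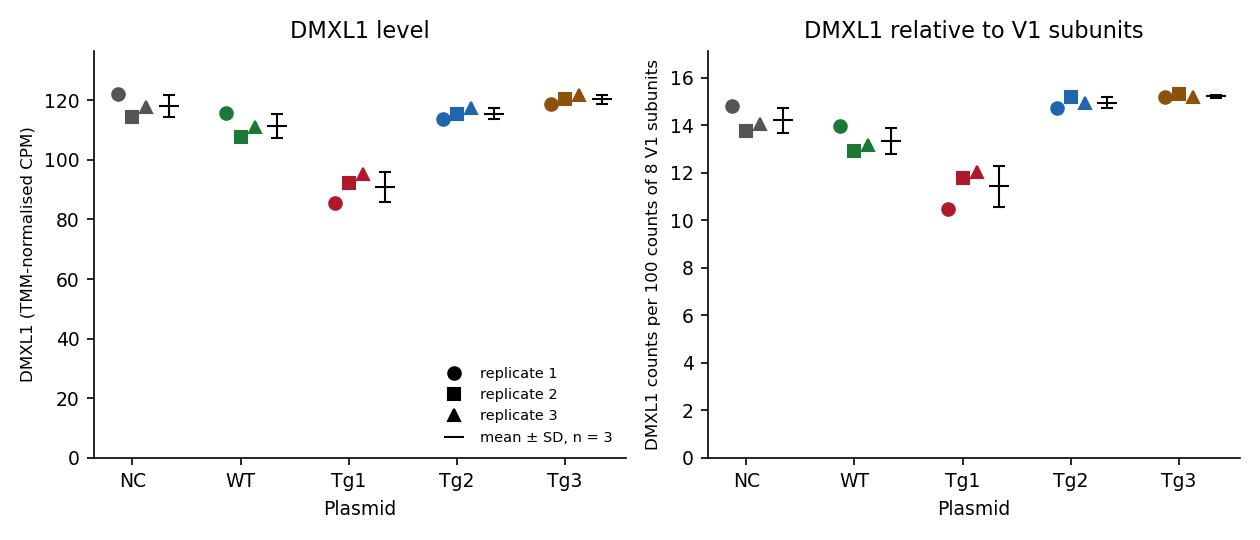
DMXL1 in each of the 15 libraries by plasmid, as TMM-normalised CPM (left) and as counts per 100 counts of 8 V1 subunits (right), with symbols for the replicate number and bars for the mean ± SD of 3 libraries. On both scales the 3 Tg1 libraries, at 85.5 to 95.3 CPM, lie below the other 12.

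The same order at the bottom was seen on a scale that needs no normalization between libraries, the DMXL1 counts per 100 counts summed over the 8 V1 subunit genes tested. This scale was chosen after the data were seen. DMXL1 was at 11.4 ± 0.853 (SD, n = 3) per 100 V1 counts in Tg1, with a range of 10.46 to 12.05. The other plasmids gave 13.3 ± 0.538 (SD, n = 3) in WT, 14.2 ± 0.530 (SD, n = 3) in NC, 15.0 ± 0.240 (SD, n = 3) in Tg2 and 15.2 ± 0.0654 (SD, n = 3) in Tg3. The Tg1 range did not overlap with any other, and the lowest WT library was at 12.9. On this scale Tg2 was above NC, whereas on the CPM scale it was below. The ratio depends on its denominator as well as on DMXL1. All 8 V1 genes were estimated below NC in Tg2 and in Tg3, with median log2 fold changes of -0.10 and -0.07.

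The comparison of each plasmid with NC asks how PKD2 expression changed the transcripts of the pig cells. In edgeR's quasi-likelihood model of all 15 libraries, DMXL1 in Tg1 differed from NC by a log2 fold change of -0.38 (standard error, SE, 0.04, 95% interval -0.47 to -0.28), which is a level lower by 22.9%. This is the difference that chose the gene. A gene counted as called when its Benjamini-Hochberg adjusted p-value was no higher than 0.05 and its log2 fold change was at least 0.26 in size. In this comparison 1.19% of all genes tested were called, 1.01% as lower. With WT the log2 fold change of DMXL1 against NC was -0.08 (SE 0.04, 95% interval -0.17 to 0.01). With Tg2 it was -0.03 (SE 0.04, 95% interval -0.12 to 0.06), and with Tg3 it was 0.03 (SE 0.04, 95% interval -0.06 to 0.12). These 4 comparisons share the NC libraries, and the intervals of WT, Tg2 and Tg3 lie above that of Tg1.

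Against the other PKD2 plasmids, DMXL1 in Tg1 had log2 fold changes of -0.29 relative to WT (95% interval -0.39 to -0.20), -0.34 relative to Tg2 (95% interval -0.44 to -0.25) and -0.40 relative to Tg3 (95% interval -0.50 to -0.31). The Tg1 libraries enter all of them, so they are not separate evidence, and 0.0692%, 0.138% and 0.615% of all genes were called in them. When each library of the groups compared was left out in turn, the estimate ranged from -0.41 to -0.33 for Tg1 against NC and from -0.33 to -0.25 for Tg1 against WT.

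The 3 pairs among WT, Tg2 and Tg3 compare the means of libraries on which the gene was not chosen, and here DMXL1 was tested. The spread used in these edgeR tests was estimated from all 15 libraries, so the Tg1 and NC libraries enter it. Tg3 was higher than WT by a log2 fold change of 0.11 (SE 0.04, 95% interval 0.02 to 0.20), or 7.89%, with all 3 Tg3 libraries above all 3 WT libraries. This did not pass the threshold, with an adjusted p of 0.205 over all genes in edgeR's quasi-likelihood test and an adjusted p of 0.0699 from edgeR over the 3 pairs. Tg2 differed from WT by 0.05 (SE 0.04, 95% interval -0.04 to 0.14) on the log2 scale, with an adjusted p of 0.423 over all genes from edgeR. Tg2 differed from Tg3 by -0.06 (SE 0.04, 95% interval -0.15 to 0.03), with an adjusted p of 0.822 over all genes from edgeR. The Tg2 libraries lay below the Tg3 libraries without overlap. Fits with only the groups compared leave Tg1 and NC out of the spread. Their adjusted p over all genes from edgeR was 0.319 for Tg3 against WT, 0.518 for Tg2 against WT and 0.736 for Tg2 against Tg3. The exact permutation test of the log2 level, two-sided, gave p = 0.3 for Tg2 against WT and p = 0.1 for each of the other pairs, and 0.1 is the smallest p-value that 3 libraries against 3 allow. None of these intervals reaches the size of the estimated difference between Tg1 and any other plasmid. Over all genes, edgeR called 5.92% in Tg2 against WT, and 0 genes in Tg3 against WT and in Tg2 against Tg3, where the unadjusted p-value was under 0.05 for 2215 and 673 genes. DESeq2 called 116 genes and 0 genes in these last comparisons, and its adjusted p for DMXL1 was 0.218 and 0.941. The 0 for Tg3 against WT depended on WT replicate 2, without which edgeR called 1321 genes. Without any other single library of these groups it called 0 or 1.

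**Figure D2:**
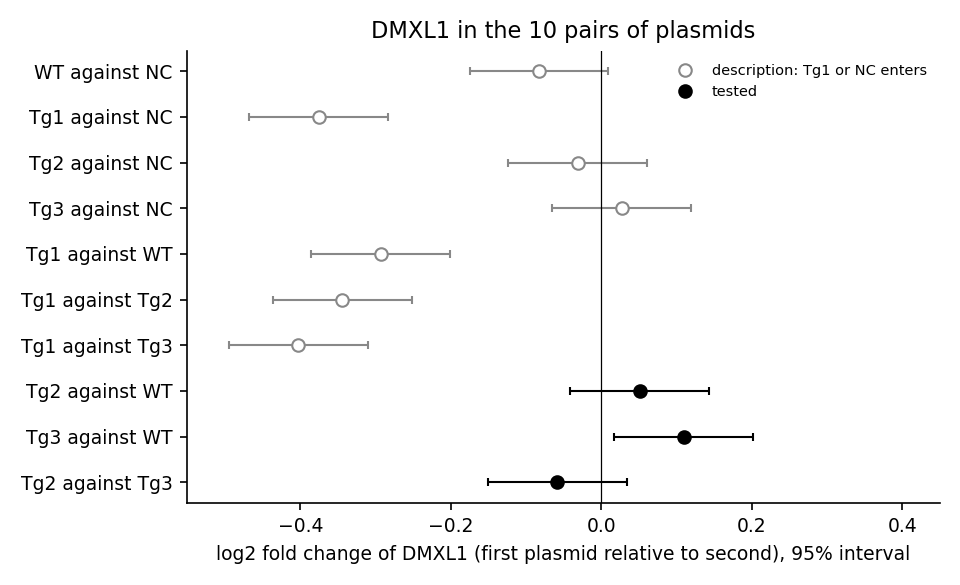
Log2 fold change of DMXL1 in the 10 pairs of plasmids with 95% intervals from edgeR. Open symbols are descriptions because Tg1 or NC libraries chose the gene, and filled symbols are the tested pairs. The 4 intervals for Tg1 lie between -0.50 and -0.20, and the other 6 lie between -0.17 and 0.20.

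Of the partners of DMXL1 in the rabconnectin-3 complex, DMXL2 and WDR7 were measured, and ROGDI was not analysed here. DMXL2, the paralog best known from synaptic vesicles and endocrine cells, was at 67.4, 66.7 and 66.0 CPM in NC replicates 1, 2 and 3. In Tg1 replicates 1, 2 and 3 it was at 53.4, 55.4 and 56.0 CPM. The groups did not overlap, but WT replicate 2, at 55.6 CPM, lay within the Tg1 range. DMXL2 fell in Tg1 by 0.28 on the log2 scale (SE 0.06), with an adjusted p of 0.034 from edgeR's quasi-likelihood test. Leaving out any one of the 6 NC and Tg1 libraries ended this call, with estimates from -0.29 to -0.26 and adjusted p-values from 0.0681 to 0.125 from edgeR. For the other plasmids DMXL2 differed from NC by -0.14 (WT), -0.18 (Tg2) and -0.07 (Tg3) on the log2 scale, and the adjusted p from edgeR was 1.00, 0.0598 and 0.519 in this order. DMXL1 and DMXL2 are related in sequence, and reads that fit both could be shared between them in transcript quantification, which was not tested.

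WDR7, the beta subunit of rabconnectin-3, was at 27.1, 28.0 and 29.0 CPM in NC replicates 1, 2 and 3. In Tg1 replicates 1, 2 and 3 it was at 24.7, 24.9 and 25.9 CPM. These Tg1 libraries were the lowest of all 15, as for DMXL1. The log2 fold change in Tg1 was -0.16 (SE 0.05), which did not pass the test, with an adjusted p of 0.136 from edgeR. Against NC it was 0.02 in WT, -0.000883 in Tg2 and 0.04 in Tg3, each with an SE of 0.05.

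Of the V1 subunits fixed as a list of 13, 8 were tested, and in Tg1 0 of the 8 were called against NC by edgeR, with 1 at an unadjusted p-value under 0.05, and 0 by DESeq2. Such an unadjusted p-value was found for 19.9% of all genes tested with Tg1, 35.2% with Tg2, 18.1% with Tg3 and 4.54% with WT. Their median log2 fold change in Tg1 was -0.01, beside 0.00 over all genes tested. For ATP6V1A, the catalytic subunit, the Tg1 estimate was -0.14 (SE 0.04, adjusted p = 0.0583 from edgeR). In Tg2 all 8 V1 estimates were below 0, with a median of -0.10 beside -0.01 over all genes, and 0 were called by either tool, with 2 at an unadjusted p-value under 0.05. In Tg3, too, all 8 were below 0, with a median of -0.07, 0 called by either tool and 2 at an unadjusted p-value under 0.05 from edgeR. ATP6V1A had -0.12 in Tg2 (SE 0.04, adjusted p = 0.0436 from edgeR), which is under the fold-change threshold.

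Of the 13 V0 and accessory subunits, 8 were tested and 0 were called in any comparison with NC by edgeR or DESeq2. The number at an unadjusted p-value under 0.05 from edgeR was 0 for Tg1, 2 for Tg2, and 1 for each of WT and Tg3, out of the 8. The median log2 fold change was 0.04 in Tg1 and -0.04 in Tg2. TCIRG1, the a3 subunit that carries the pump to lysosomes and to the border of bone-resorbing cells, ranged from 166 to 335 CPM among the WT libraries alone. Its log2 fold change was 0.36 in Tg1 (SE 0.21, adjusted p = 0.355 from edgeR) and 0.59 in Tg2 (SE 0.21, adjusted p = 0.0718 from edgeR). The Tg2 difference of TCIRG1 passed the threshold in edgeR with a block for the replicate number (0.60, adjusted p = 0.019), with only the Tg2 and NC libraries (0.59, adjusted p = 0.0295), without all replicate 2 libraries (0.73, adjusted p = 0.0295) and without Tg2 replicate 3 (0.69, adjusted p = 0.0463). Both tested assembly factors of the endoplasmic reticulum, TMEM199 and CCDC115, were within 0.06 of 0 on the log2 scale in every comparison with NC, and CCDC115 had -0.05 in Tg1 (SE 0.06).

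The TLDc proteins bind V1, and 4 of the 5 listed were tested. NCOA7, which has a TLDc domain and is known to act on the pump in the kidney, was at 64.4, 78.9 and 59.3 CPM in NC replicates 1, 2 and 3 and at 101.7, 96.7 and 80.6 CPM in Tg2 replicates 1, 2 and 3. The groups did not overlap, but the highest NC library came close to the lowest Tg2 library. NCOA7 rose in Tg2 by 0.46 on the log2 scale (SE 0.12, adjusted p = 0.0305 from edgeR). In Tg1, where DMXL1 was low, the log2 fold change of NCOA7 was 0.21 (SE 0.12, adjusted p = 0.368 from edgeR). In Tg3 it was 0.29 (SE 0.12, adjusted p = 0.253 from edgeR), and in WT 0.05 (SE 0.12).

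Among the chloride and proton exchangers of endosomes and lysosomes, 7 of 9 were tested and all 7 estimates in Tg1 were below 0, with a median of -0.07. This was not particular to Tg1. In Tg2 and in Tg3 6 of the 7 were below 0, with medians of -0.08 and -0.09. In WT 5 of the 7 were below 0, with a median of -0.01. CLCN6, a late endosomal chloride-proton exchanger, was at 22.9, 24.0 and 26.8 CPM in NC replicates 1, 2 and 3 and at 19.1, 20.8 and 18.6 CPM in Tg1 replicates 1, 2 and 3. It fell by 0.33 in Tg1 on the log2 scale (SE 0.08, adjusted p = 0.0455 from edgeR) and by 0.32 in Tg2 (SE 0.08, adjusted p = 0.0251 from edgeR). In Tg3 CLCN6 had -0.24 (SE 0.08, adjusted p = 0.183 from edgeR), and in WT -0.06 (SE 0.08), neither of them called. CLCN5, the exchanger of proximal tubule endosomes that is mutated in Dent disease, is named because its 3 Tg1 libraries were below the other 12, which was seen after its values were known. CLCN5 had 55.7, 56.2 and 57.6 CPM in Tg1 replicates 1, 2 and 3, and the lowest other library was Tg2 replicate 1 at 58.2 CPM. Its log2 fold change in Tg1 was -0.39 (SE 0.10), close to that of DMXL1, but the adjusted p was 0.0521 from edgeR, just outside the threshold. DESeq2 called it, with an adjusted p of 0.00964.

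All 20 genes of the list of lysosomal proteins and their transcription factors were tested. In Tg1, 0 were called by edgeR or DESeq2, with 4 (beside 19.9% of all genes) at an unadjusted p-value under 0.05 from edgeR and a median log2 fold change of 0.02. In Tg2, TFEB, a transcription factor of lysosomal genes, was at 10.8, 12.0 and 14.0 CPM in replicates 1, 2 and 3, below the NC values of 16.0, 16.7 and 18.0 CPM. TFEB fell in Tg2 by 0.47 on the log2 scale (SE 0.11, adjusted p = 0.021 from edgeR), while in Tg1 it had -0.01 (SE 0.10, adjusted p = 0.956 from edgeR). In Tg3 it had -0.30 (SE 0.10, adjusted p = 0.199 from edgeR). Of the 20 estimates, 14 were below 0 in Tg2 and 16 in Tg3, with a median of -0.05 in each, beside 6 in Tg1 and 7 in WT. In Tg2 6 had an unadjusted p-value under 0.05 from edgeR, and in Tg3 4, beside 35.2% and 18.1% of all genes. SQSTM1, named after its values were seen, had -0.25 in Tg2 (SE 0.05, adjusted p = 0.0141 from edgeR), which is under the fold-change threshold. Its Tg3 value was -0.21 (SE 0.05, adjusted p = 0.144 from edgeR).

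Over all 51 listed genes other than DMXL1, 2 were called in Tg1, both lower (DMXL2 and CLCN6), which is 3.92% beside 1.19% of all genes tested. In Tg2, 3 were called (CLCN6 and TFEB lower, NCOA7 higher), which is 5.88% beside 8.43% of all genes, 3.7% lower and 4.73% higher. In WT and in Tg3 0 of the 51 were called by edgeR or DESeq2, with 2 and 9 at an unadjusted p-value under 0.05 from edgeR, beside 0% of all genes called by edgeR. Over all genes, 524 in WT and 2089 in Tg3 had such an unadjusted p-value, and DESeq2 called 11 and 52. The median log2 fold change of the 51 was 0.01 in Tg1 and -0.05 in Tg2, beside 0.00 and -0.01 over all genes. WDR7 and CLCN5 were the 2 of 51 that, like DMXL1, had their lowest 3 libraries in Tg1, beside 243 of all 11553 genes (2.10%). The calls were sensitive to single libraries. Leaving out any one of the NC or Tg1 libraries ended the call of CLCN6 in Tg1, the adjusted p-values then running from 0.0773 to 0.177 from edgeR. In Tg2, CLCN6, NCOA7 and TFEB were each lost without NC replicate 1, NC replicate 3, Tg2 replicate 1 or Tg2 replicate 2, and the largest adjusted p-values from edgeR in those fits were 0.113, 0.133 and 0.091.

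**Figure D3:**
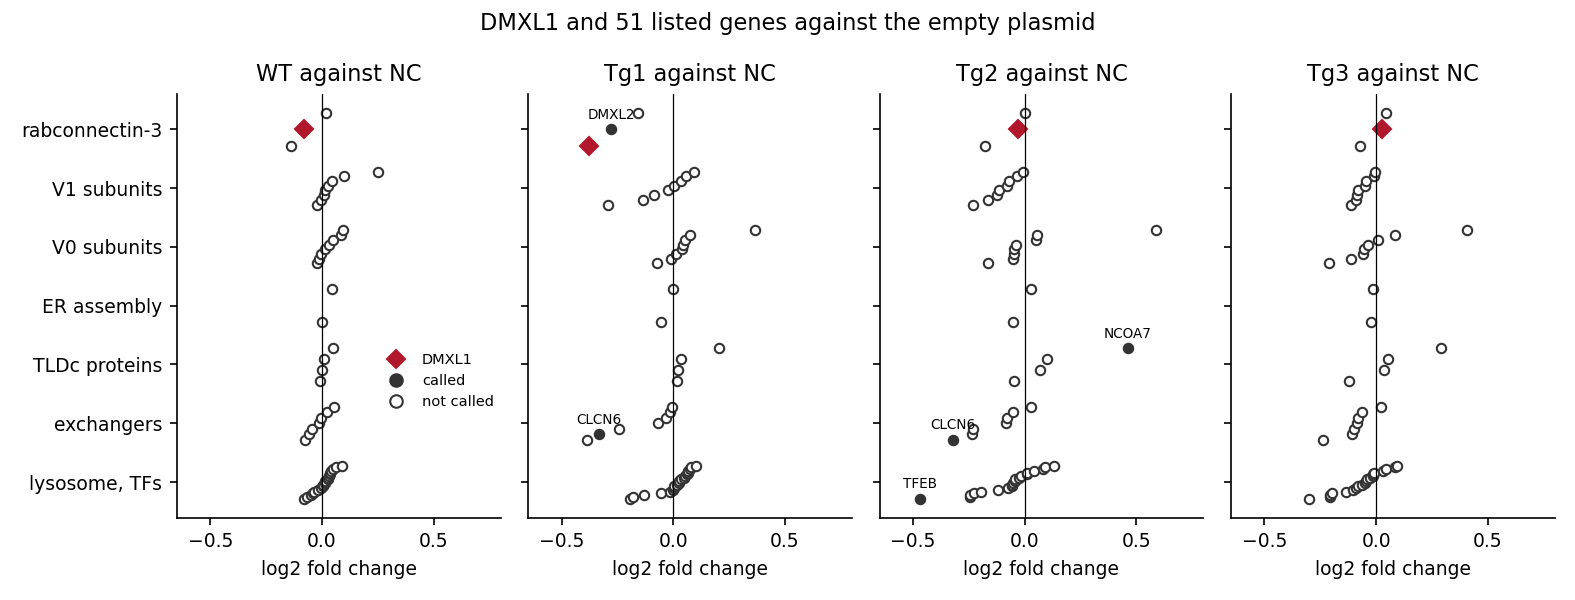
Log2 fold change against NC of DMXL1 (red diamond) and of 51 listed genes (circles, filled where called by edgeR) in 7 functional lists, for WT, Tg1, Tg2 and Tg3; vertical positions within a list only separate the points. DMXL1 lies at -0.38 in Tg1 and between -0.08 and 0.03 in the other panels, and most V1, V0 and lysosomal genes lie near 0 in Tg1.

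The genes next to DMXL1 in the RefSeq gene order of assembly Sscrofa11.1 were DTWD2 on one side, and TNFAIP8 followed by HSD17B4 on the other, and in Tg1 none of them passed the test. HSD17B4, a peroxisomal enzyme of fatty acid oxidation, stood at -0.07 against NC on the log2 scale (SE 0.04, adjusted p = 0.366 from edgeR). TNFAIP8 stood at 0.11 (SE 0.10, adjusted p = 0.579 from edgeR). DTWD2, at 2.00 to 3.40 CPM over the libraries, stood at -0.19 (SE 0.19, adjusted p = 0.6 from edgeR).

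The pattern of DMXL1 over the 15 libraries was compared with that of all other genes tested by Pearson's r of the log2 level. As the gene was chosen on these libraries, r is a description. The genes with a symbol and the highest r were RC3H1 (r = 0.948), ARHGAP5 (0.944), PTAR1 (0.933), SRCAP (0.931) and PHIP (0.926), with Spearman's rank correlation from 0.725 to 0.843. RC3H1 encodes roquin-1, which destabilises mRNAs, SRCAP a chromatin-remodelling ATPase and PHIP a bromodomain protein. RC3H1 was at 44.2, 47.5 and 50.8 CPM in Tg1 replicates 1, 2 and 3 and between 54.5 and 64.1 CPM in the other 12 libraries. In Tg1 the replicate with the least DMXL1, replicate 1, also had the least of each of these 5 genes.

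Without the Tg1 libraries, r with DMXL1 over the remaining 12 libraries was 0.656 for RC3H1, 0.426 for ARHGAP5, 0.666 for PTAR1, 0.66 for SRCAP and 0.53 for PHIP. For the deviations from the group means over the 15 libraries it was between 0.629 and 0.76 for these 5 genes. The libraries that make up these points share plasmids and, within a plasmid, differ by well. As these genes were picked for their r over the same libraries, the values in subsets of them are not separate evidence.

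The genes with a symbol and the lowest r were PARK7 (r = -0.905), OAZ1 (-0.874) and CYC1 (-0.868). PARK7 encodes DJ-1, an oxidative stress protein, OAZ1 the antizyme of ornithine decarboxylase, and CYC1 a subunit of respiratory complex III. PARK7 was at 196.8, 197.6 and 186.3 CPM in Tg1 replicates 1, 2 and 3 and between 169.5 and 183.7 CPM elsewhere. Without the Tg1 libraries r was -0.487 for PARK7, -0.684 for OAZ1 and -0.128 for CYC1.

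Within the lists, r with DMXL1 over the 15 libraries was highest for its complex partners, at 0.779 for WDR7 and 0.732 for DMXL2, followed by CLCN5 at 0.692. Without the Tg1 libraries r was -0.0147 for WDR7, 0.517 for DMXL2 and 0.321 for CLCN5. The deviations from the group means gave 0.0781 for WDR7, 0.421 for DMXL2 and 0.453 for CLCN5. The median r with DMXL1 was -0.203 over the 8 V1 subunits, -0.34 over the 8 V0 subunits and -0.405 over the 20 lysosomal genes, beside -0.0215 over all genes tested. The lowest in the lists, named after its value was seen, was PSAP, the precursor of the saposins, which activate lysosomal lipid hydrolases, with r = -0.829.

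**Figure D4:**
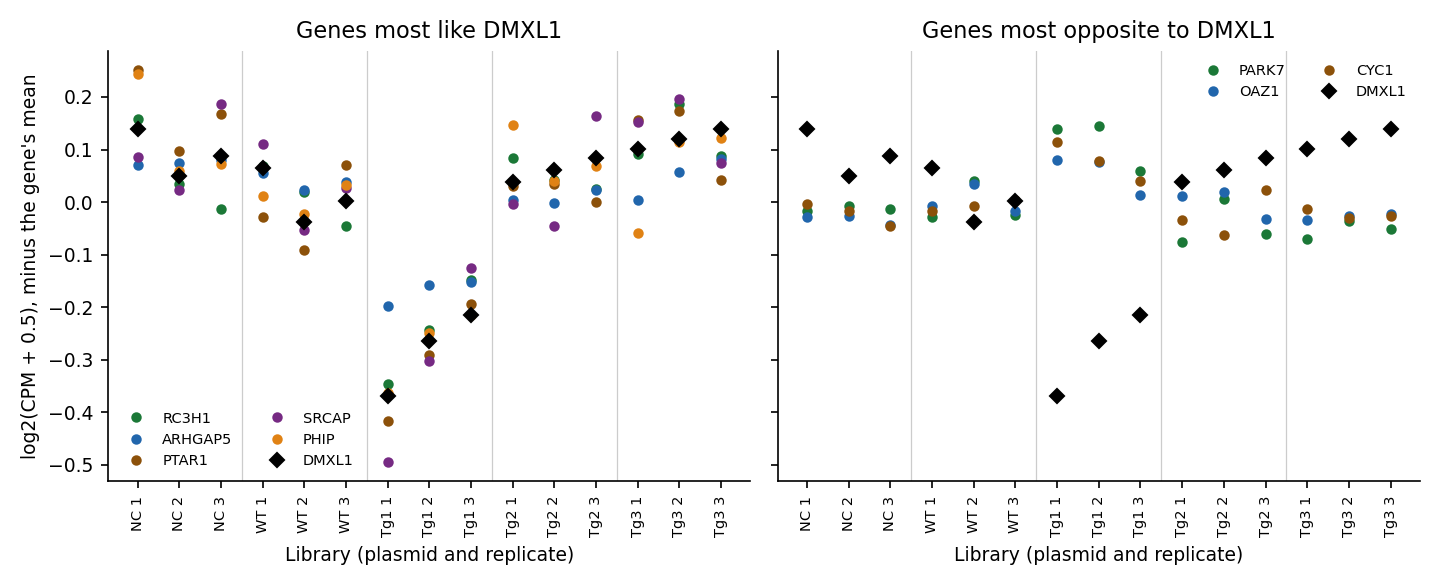
Log2 level of DMXL1 (diamonds) and of the 5 genes with the highest (left) and the 3 with the lowest (right) Pearson's r with it, each minus its own mean over the 15 libraries. In the Tg1 libraries the 5 genes on the left are low with DMXL1, and the other 12 libraries vary less. The 3 on the right are high there, except OAZ1 in Tg1 replicate 3, at 331 CPM beside 336 CPM in WT replicate 2.

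Over all genes, the replicates of a plasmid varied beyond counting noise (chi-square over its degrees of freedom, 2.9 to 46.6), most between WT replicates 2 and 3. The main axis of these deviations, on which WT replicate 2 lies farthest out, held 49.8% of their variation. DMXL1 had r = -0.176 with this axis over the 15 libraries.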

How the data were processed

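RNA of LLC-PK1 cells was sequenced on an Illumina platform. The authors estimated transcript abundance by Salmon, with Ensembl pig cDNA as the target, and the deposited table holds whole-number counts per gene; how transcripts were summed to genes is not given in the sources used here, nor is a genome build. Libraries hold 20216200 to 26132196 counts. Genes averaging at least 2 CPM (11553) were fitted with edgeR 4.0.16 in R 4.3.3 (TMM, glmQLFit and glmQLFTest, all 15 libraries, group means), with Benjamini-Hochberg adjustment. Standard errors were taken from the estimate and its F statistic. The authors used DESeq2, which is an alternative here. Log2 levels used a pseudocount of 0.5 CPM. Symbols came from an Ensembl name table, which matched 13373 of 16660 genes, and 59 of 67 listed genes. DMXL1 and the lists were chosen with earlier results of these data known. Genes named are DMXL1, its complex, the called genes with the 2 smallest adjusted p-values per list, direction and comparison or, with none called, the member with the highest CPM, and the 5 genes most like and 3 least like DMXL1; others are said to be chosen after their values were seen. Levels of different genes are not compared, and protein or transcript length was not used here. The fit was run on simulated counts with the same dispersion for all genes, no replicate effect and planted changes larger than those of DMXL1. That run does not check the calls under the replicate spread seen here. Alternatives were DESeq2 1.42.0, other scalings, no filter, only the groups compared, leaving out libraries, and a block for the replicate number. Deviations of same-numbered libraries correlated most on average for WT and NC (0.131, 0.595 and 0.512). All 3 correlations were also above 0 for Tg3 and WT (0.092, 0.521 and 0.352) and for Tg3 and NC (0.015, 0.487 and 0.369). The labels give only the numbers. The block called 0 genes in WT against NC, as without it, and 111 in Tg3 against WT, beside 0 without it.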

Additional observations from a re-analysis of the deposited data

How the results depend on the processing

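Of the DMXL1 differences, all 60 estimates with a library left out and 68 of 70 under the other settings stayed within the replicate SD of 0.05 or, where tested, kept their direction and stayed uncalled. With total counts only, Tg2 against NC moved to -0.11, Tg3 against NC turned to -0.02, and Tg2 against WT reversed to -0.0203 (adjusted p = 0.782 from edgeR); this scaling shifts all genes in Tg2 against NC by a median of -0.08. With the replicate number as a block, DMXL1 in Tg1 against NC was at -0.38, and the tested DMXL1 pairs stayed uncalled. In Tg3 against WT its adjusted p with the block was 0.143 from edgeR. The mean correlation of same-numbered libraries was 0.41 for WT and NC, 0.32 for Tg3 and WT and 0.04 for Tg1 and NC. Without all replicate 2 libraries (added after seeing the data), DMXL1 in Tg1 against NC was at -0.41. In that setting Tg3 against NC also turned sign, to -0.0044.

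In Tg1 against NC, the count of listed genes called was 1 without the filter, beside 96 over all genes. It was 0 without all replicate 2 libraries, beside 19 over all genes. With only the Tg1 and NC libraries it stayed at 2, but CLCN6 was lost (adjusted p = 0.0689 from edgeR) and CLCN5 gained (0.0249), and CLCN5 was also called with the block (0.00927). CLCN6 in Tg1 was lost without the filter (0.0661), and CLCN6 in Tg2 without all replicate 2 libraries (0.0673). In Tg2 against NC the count was 6 of 51 with total counts only, beside 1395 of all 11553 genes tested. With single libraries left out, DMXL1 ranged from -0.11 to -0.06 in WT against NC. It ranged from -0.05 to -0.01 in Tg2 against NC and from 0.01 to 0.05 in Tg3 against NC. The listed genes called in such fits were 0 for Tg1, beside 16 to 83 of all 11553 genes. For Tg2 they were 0 to 8 of 51, beside 0 to 1878 of all genes. Both highest Tg2 counts came without Tg2 replicate 3.

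WDR7 lay so near 0 outside Tg1 that its sign turned: in Tg2 against NC to 0.0035 with DESeq2 size factors, 0.0031 with DESeq2 and 0.0014 without the filter, and with single libraries left out it ranged from -0.00276 to 0.0441 in WT, from -0.0252 to 0.0216 in Tg2 and from -0.00133 to 0.103 in Tg3. Counts of genes called over all genes in Tg1 against NC were 138 with edgeR, 244 with DESeq2 and 246 with the block; in Tg2 against NC they were 974, 1252 and 1624, and in Tg3 against NC 0, 52 and 11. For Tg2 against WT they were 684, 1184 and 1578, and 0 with only those groups in the fit. For Tg3 against WT the block gave 111. For Tg1 against WT, Tg2 and Tg3, edgeR gave 8, 16 and 71, and DESeq2 77, 162 and 139. Without WT replicate 2, edgeR gave 852 for Tg1 against WT, and 0 without any other single library of those groups. The planned description by protein length was not run, as no lengths were used here. The depth of 1966 to 3052 DMXL1 counts limits each library to a counting error near 2%. The cause of these shifts was not tested.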
